A study of Mus musculus with 6 samples.

Results

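Keratin, actin and tubulin genes were followed through 10 listed genes in mouse hepatocytes that lacked Bim and in wild-type hepatocytes: Krt8, Krt18, Actb, Actg1, Tuba1a, Tuba1b, Tubb2a, Tubb5, Vim and Tmsb10. They were found by symbol among the 48353 genes of the files, and all 10 were present. The 3 Bim knock-out samples came from C57BL/6 mice in which floxed Bim alleles were crossed with Alb-Cre, a Cre recombinase driven by the albumin promoter and so active in hepatocytes. The 3 wild-type samples are of the same strain, and the labels do not say whether those mice carried floxed alleles or Cre. The protocol describes male mice on chow, or on a high-fat diet begun at 8 to 10 weeks of age for 14 to 20 weeks, and gives no diet for any sample. Hepatocytes were released by collagenase perfusion, and polyadenylated RNA was read from a single end. Whether each sample is a different animal is not stated in the labels, so p-values here measure the spread of the samples alone, and that spread may be technical.

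Hepatocytes carry a simple keratin network in which KRT8, of the basic type, pairs with KRT18, of the acidic type. Beta- and gamma-actin form the cortical and bile canalicular filaments of the cell, and microtubules are built from dimers of alpha- and beta-tubulin. Vimentin is the intermediate filament of mesenchymal cells and leukocytes, and thymosin beta 10 binds actin monomers. Transcripts of these genes are known to rise when hepatocytes taken from the liver lose their differentiated state in culture. Whole liver and cultured cells were not analysed here, so the levels below compare genotypes and not states of isolation.

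The libraries held 25335211 to 28245264 estimated reads in knock-out samples, against 28131355 to 31130519 in wild-type samples. Bcl2l11, the gene of BIM, had 0 estimated reads in all 3 knock-out libraries, against 0, 680 and 478 in wild-type replicates 1 to 3. A listed 0 at a gene with several transcripts can be a failed estimate in these files, so the 0 in the library labelled wild-type replicate 1 does not check its label. Xist, the RNA of the inactive X chromosome, had 888 to 1110 estimated reads per 1000000 (RPM) in knock-out libraries, against 936 to 1377 in wild-type libraries, while the Y-linked Ddx3y, Kdm5d, Uty and Eif2s3y were at 0 in all 6. These values go against the male mice of the protocol. Hepatocyte markers were present in every library: 10 to 12 of the 14 in the files were above 0 in knock-out libraries, against 11 or 12 in wild-type libraries, with Tat and Pck1 at 0 throughout.

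The library labelled wild-type replicate 1 stood apart in markers of other cells. The 15 macrophage markers summed to 149 to 224 RPKM (reads scaled to transcript length in kilobases and to library size) in the knock-out libraries, with 8 of them above 0 in each. In wild-type replicates 1, 2 and 3 they summed to 4668, 224 and 206 RPKM, with 14, 9 and 8 above 0. Adgre1, Clec4f, Vsig4, C1qc and Tyrobp were above 0 only in replicate 1 among the 6 libraries, and Fcer1g was at 0 in all. The 14 hepatocyte markers summed to 22744 to 36176 RPKM in knock-out libraries, against 19452, 41459 and 19785 RPKM in wild-type replicates 1 to 3. For the 10 of them above 0 in all libraries, the mean log2(RPKM + 1) was 8.45 to 8.67 in knock-out libraries. It was 7.93, 8.88 and 8.37 in wild-type replicates 1 to 3, so lowest in replicate 1. Of the 12 lymphocyte markers, Ptprc, the common leukocyte antigen CD45, reached 106 RPKM in wild-type replicate 1, and the list summed to at most 0.143 RPKM in each of the other 5 libraries. Endothelial markers summed to 46.9, 9.92 and 84.6 RPKM in knock-out replicates 1 to 3, against 152, 199 and 3.69 in the wild-type ones. Of the 11 markers, 2, 2 and 4 were above 0 in the knock-out libraries, against 6, 3 and 2 in the wild-type ones. The 1 marker above 0 in all libraries was highest in wild-type replicate 1, at 4.1079 in log2(RPKM + 1), against 0.9238 to 1.4996 elsewhere. Pecam1, Kdr, Lyve1, Clec4g and Tek were at 0 in all. Biliary markers, most of them Spp1 except in knock-out replicate 1, where Spp1 was at 0, summed to 50.7, 551 and 238 RPKM in the knock-out libraries, against 367, 124 and 168 RPKM in the wild-type ones. The 12 stellate and fibroblast markers summed to at most 0.0584 RPKM in every library. In such bulk samples fewer cells of a type and less RNA per cell cannot be told apart. Zeros among these markers can be failed estimates where a gene has several transcripts.

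No difference between knock-out and wild-type samples was detected for any of the 10 genes. The limma fit covered the 11021 genes averaging 1 RPKM or more over the libraries. In it 0 of the 10 passed an adjusted p of 0.05, where 87 genes (0.789%) did. Among the 5538 of these genes above 0 in all 6 libraries, to which all 10 belong, 0 genes (0%) passed the same test, while 130 (2.35%) reached an unadjusted p of 0.05. In RPM the 3 knock-out and 3 wild-type values overlapped for each of the 10 genes. Groups that did not overlap were seen for 211 (3.81%) of the 5538 genes in RPM and for 329 (5.94%) in RPKM, and for 0 of the 10 genes on either scale. All 3 knock-out libraries lay below all 3 wild-type ones in RPM for 41 (0.740%) of the 5538 genes. Together the 10 genes took 0.970%, 0.851% and 0.956% of the reads in knock-out replicates 1 to 3, against 0.726%, 0.970% and 0.934% in wild-type replicates 1 to 3.

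All 10 genes were read strongly, at levels that spanned from 137 to 2797 RPKM as group means. Actb was the highest, with 2734 ± 361 RPKM in knock-out and 2797 ± 714 RPKM in wild-type libraries (SD, n = 3 each), and ranked 35th of the 11021 tested genes by its mean over all libraries. Krt8 and Krt18 followed, with 1766 ± 259 and 1490 ± 113 RPKM in knock-out libraries, against 1468 ± 594 and 1322 ± 525 RPKM in wild-type libraries. Tubb5 and Actg1 came next at 687 ± 276 and 605 ± 123 RPKM in knock-out libraries, against 713 ± 145 and 726 ± 166 RPKM in wild-type libraries. The values of neighbours in this order overlapped in both genotypes for Krt8 and Krt18 and for Tubb5 and Actg1, and not for Actb and Krt8. Tuba1b averaged 516 ± 81.5 RPKM in knock-out and 531 ± 20.8 RPKM in wild-type libraries. Vim, Tmsb10, Tuba1a and Tubb2a lay between 137 and 326 RPKM in knock-out libraries, against 137 and 328 RPKM in wild-type libraries. The values of Vim and Tmsb10, and of Tmsb10 and Tuba1a, overlapped in both genotypes, and those of Tuba1b and Vim and of Tuba1a and Tubb2a did not. Their ranks by the mean over all libraries ran from 373 for Vim to 899 for Tubb2a.

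**Figure D1:**
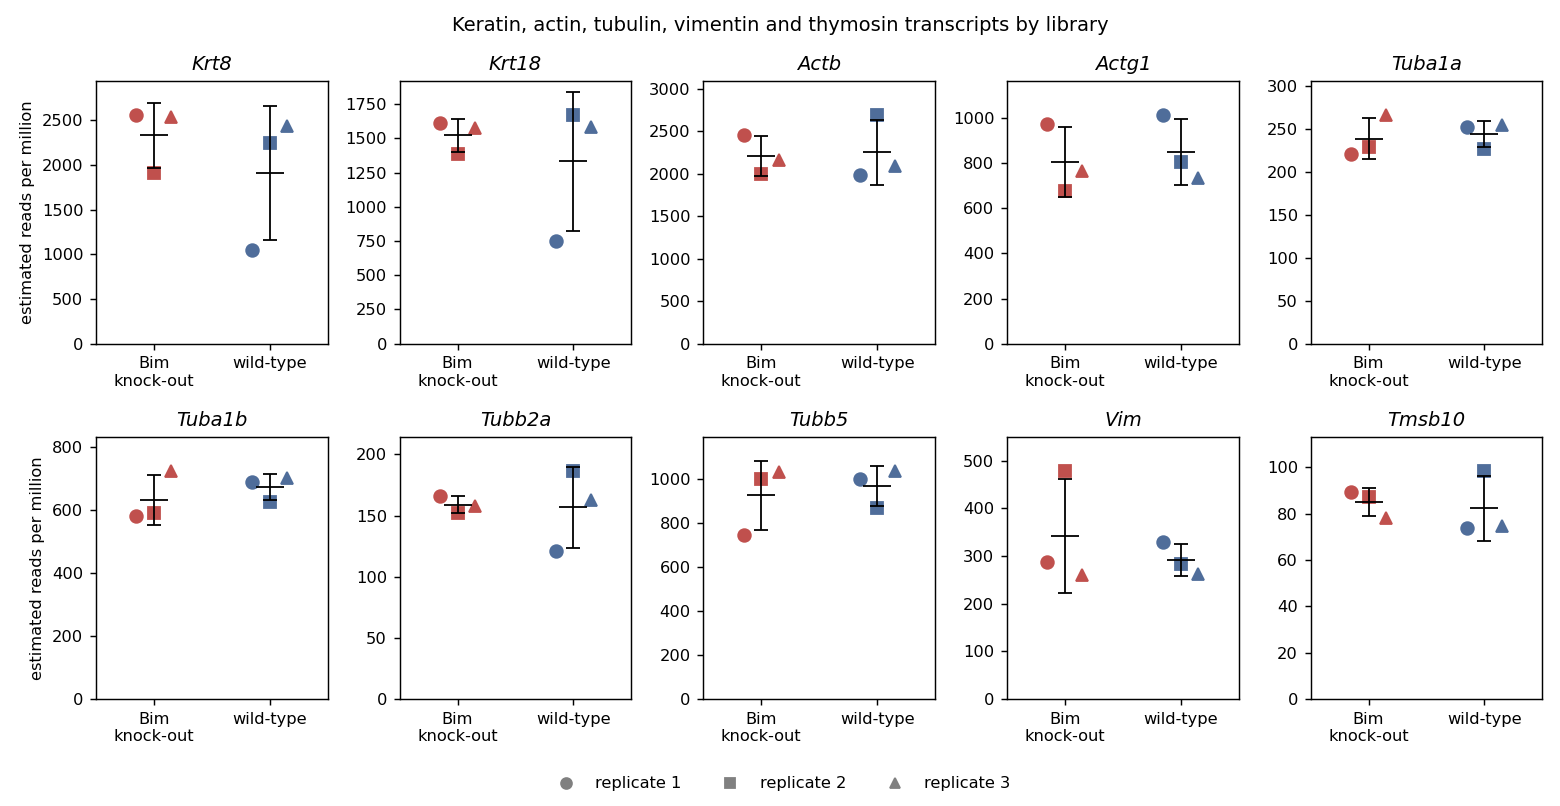
Estimated reads per 1000000 (RPM) of each of the 10 genes, 1 panel per gene with its own axis from 0, points for the 3 Bim knock-out libraries left and the 3 wild-type libraries right. The groups overlap in every panel, and the points lowest for Krt8 and Krt18, at 1049 and 749, belong to wild-type replicate 1.

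In RPM Krt8 varied most among the 10 genes, with a coefficient of variation of 27.2% over the 6 libraries, beside 26.2% for Vim and 24.2% for Krt18. In RPKM Tubb5 varied most, with 28.3%, beside 27.3% for Krt8, 25.0% for Krt18, 22.1% for Actg1 and 20.9% for Vim. Krt8, the basic partner (ENSMUSG00000049382, chromosome 15 from 101996711 to 102004342, minus strand, build GRCm38), had 2556, 1909 and 2531 RPM in knock-out replicates 1 to 3, against 1049, 2249 and 2437 in wild-type replicates 1 to 3. Krt18, the acidic partner (ENSMUSG00000023043, chromosome 15 from 102028216 to 102032026, plus strand), had 1612, 1387 and 1574 in the same knock-out libraries, against 749, 1670 and 1583 in the wild-type libraries. For both genes wild-type replicate 1 was the lowest of the 6 libraries and the other 5 lay close together, so the groups overlapped. The genes point away from the same 23873 bases that lie between them, and each has a single transcript in the files, so their values do not depend on how reads were divided among transcripts of the gene. Of the 50-base windows of Krt8, 26.93% also occur in the pseudogene Krt8-ps, against 0.72% of those of Krt18 in other genes. The windows around their annotated starts are shown because they are neighbours that were both lowest in the same library. They are RefSeq sequences of GRCm38.p6 on the strand of the gene, running 250 bases before to 50 after the start, with the letters TATAA or, overlapping it in Krt8, its reverse complement in capitals.
Krt8, chr15:102004293-102004592, minus strand: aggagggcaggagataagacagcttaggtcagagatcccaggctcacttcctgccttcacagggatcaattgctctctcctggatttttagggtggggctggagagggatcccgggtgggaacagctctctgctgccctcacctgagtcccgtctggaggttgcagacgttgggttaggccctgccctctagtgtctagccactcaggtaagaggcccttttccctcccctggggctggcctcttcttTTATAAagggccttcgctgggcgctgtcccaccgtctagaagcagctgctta
Krt18, chr15:102027966-102028265, plus strand: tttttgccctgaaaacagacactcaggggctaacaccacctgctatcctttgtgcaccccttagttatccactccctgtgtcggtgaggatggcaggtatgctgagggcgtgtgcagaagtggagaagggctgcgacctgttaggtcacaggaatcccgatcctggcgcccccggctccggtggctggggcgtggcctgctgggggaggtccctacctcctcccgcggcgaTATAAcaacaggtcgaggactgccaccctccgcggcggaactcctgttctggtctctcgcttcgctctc
The match begins 2 bases before the annotated start in Krt8 and 19 bases before it in Krt18. On either strand TATAA occurred in 24.87% of the 32851 RefSeq promoter windows of this length, and in windows of 6 of the 9 listed genes that matched the table, Krt8, Krt18, Tuba1a, Tubb2a, Vim and Tmsb10. CCAAT, sought on either strand, occurred in 37.41% of all windows and in windows of Actg1, Tuba1a, Tubb5 and Vim.

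For Krt8 the log2(RPKM + 1) of knock-out minus wild-type libraries was 0.36 (SE 0.38, 95% interval -0.63 to 1.35, adjusted p = 0.943 by limma). For Krt18 it was 0.27 (SE 0.36, interval -0.66 to 1.19, adjusted p = 0.943 by limma). Both differences were smaller than their errors, and both turned when wild-type replicate 1 was left out. Without that library the difference was -0.05 for Krt8 (SE 0.16) and -0.12 for Krt18 (SE 0.10), each with an adjusted p of 0.989 by limma. An exact two-sided permutation test of RPM, which cannot go below 0.1 with 3 against 3 libraries, gave p = 0.5 for Krt8 and p = 0.9 for Krt18.

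The balance of the partners was steadier than their levels. Krt8 had 1.58, 1.38 and 1.61 reads for each Krt18 read in knock-out replicates 1 to 3, against 1.40, 1.35 and 1.54 in wild-type replicates 1 to 3. The ratio in wild-type replicate 1 thus lay within the range of the other libraries. Its log2 difference between genotypes was 0.09, with p = 0.3 in an exact two-sided permutation test and 0.6 after adjustment over the 4 ratios computed. Per length, Krt8 took 54.0% ± 2.12 of the RPKM of the keratins listed in knock-out libraries and 52.5% ± 1.72 in wild-type libraries (SD, n = 3 each), and Krt18 nearly all of the rest. Of the other 12 keratins, Krt5 reached at most 1.75 RPKM and Krt20, a keratin of gut epithelium, at most 1.97 RPKM, while Krt7 and Krt19, which mark bile duct cells, were listed at 0 in all 6 libraries. The loci of Krt7 and Krt19 hold several transcripts, so these zeros can be failed estimates and do not show that the genes were silent.

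Wild-type replicate 1 was read against the median of the other 5 libraries for each gene. Krt8 stood at 0.431 and Krt18 at 0.473 of that median, log2 differences of -1.21 and -1.08. Of the 5538 genes above 0 throughout, 165 (2.98%) were lower there by at least 1 on the log2 scale, and 1.88% were lower there than Krt8 by this measure. The other 8 listed genes stood nearer the median. Tubb2a was at 0.746, Tmsb10 at 0.847, Actb at 0.916, Tubb5 at 1.00, Tuba1a and Tuba1b at 1.10 each, Vim at 1.16 and Actg1 at 1.32 of the median. Of 83 other cytoskeleton genes above 0 throughout, taken from the lists described further on, 2 were lower there by at least 1 on the log2 scale of RPM, Plec and Ppl, and 5 were higher, Ezr, Map1lc3b, Marcks, Marcksl1 and Tmsb4x. Plec, the cytolinker plectin, had 701, 699 and 512 RPM in knock-out replicates 1 to 3, against 162, 647 and 678 in wild-type replicates 1 to 3. In RPKM its value in wild-type replicate 1, 44.3, was close to the 45.3 of knock-out replicate 3. Dst, another cytolinker gene, had its highest RPM in wild-type replicate 1, at 1392. Its RPKM in that library was 110, against 105 to 240 in the others. Tmsb4x, the thymosin beta of leukocytes and many other cells, had 79.1, 54.9 and 80.0 RPM in knock-out libraries, against 814, 93.0 and 69.5 in wild-type libraries. Plec and Dst were picked after their values were seen. The macrophage markers given above are high in the same library, as is the endothelial marker above 0 in all libraries. The part of such other cells in the low keratin values was not tested.

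**Figure D2:**
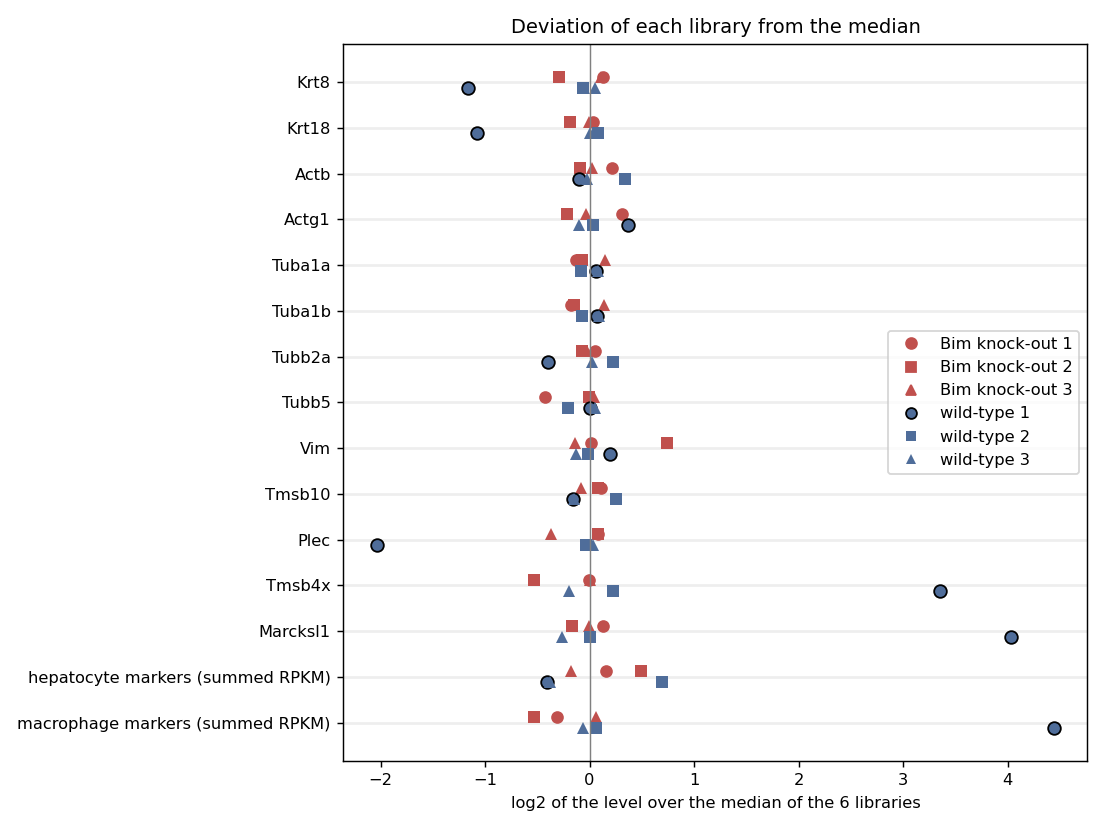
Log2 of the RPM of each listed gene in each of the 6 libraries over the median of the 6 for that gene, with Plec, Tmsb4x, Marcksl1 and the summed RPKM of 2 marker lists, Bim knock-out libraries in red and wild-type ones in blue, wild-type replicate 1 outlined. Of the 10 listed genes Krt8 and Krt18 of wild-type replicate 1 lie farthest below 0, and the alpha-tubulin points stay near 0.

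No genotype difference was detected in the actins, and the reads of Actb were divided unevenly among transcripts. Of them 58.6%, 47.0% and 44.7% went to an 861-base transcript in knock-out replicates 1 to 3, against 44.0%, 49.9% and 65.0% in wild-type replicates 1 to 3. Actg1 reads went to an 1827-base transcript alone in 5 libraries, and in wild-type replicate 2 36.5% of them to an 864-base one. Actb, which encodes cytoplasmic beta-actin (ENSMUSG00000029580, chromosome 5 from 142903115 to 142906754, minus strand), had 2463, 1997 and 2165 RPM in knock-out replicates 1 to 3, against 1983, 2690 and 2090 in wild-type replicates 1 to 3. Actg1, cytoplasmic gamma-actin (ENSMUSG00000062825, chromosome 11 from 120345690 to 120348542, minus strand), had 977, 676 and 767 in knock-out libraries, against 1013, 805 and 734 in wild-type libraries. Knock-out minus wild-type was -0.01 for Actb (SE 0.22, interval -0.58 to 0.56) and -0.26 for Actg1 (SE 0.24, interval -0.87 to 0.36), with adjusted p-values of 1.00 and 0.941 by limma. Actb gave 2.52, 2.95 and 2.82 reads for each Actg1 read in knock-out libraries, against 1.96, 3.34 and 2.85 in wild-type libraries. The 2 outermost values of that ratio were both wild-type, and the exact two-sided permutation test gave p = 0.9. The muscle actins Acta1, Actc1 and Actg2 were listed at 0 throughout, and Acta2, the smooth muscle actin of activated stellate cells, averaged 0.000588% of the actin RPKM in knock-out libraries and 0.000617% in wild-type libraries. The loci of Acta1, Actc1 and Actg2 hold several transcripts, so their zeros can be failed estimates.

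The start of the coding sequence shows bases at which the actins differ, and not how far reads tell the whole transcripts apart. The first 90 coding bases are given from the annotated transcripts of GRCm38, with the 16 bases that differ in capitals.
Actb: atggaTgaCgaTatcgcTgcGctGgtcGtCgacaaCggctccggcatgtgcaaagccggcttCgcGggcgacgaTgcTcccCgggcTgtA
Actg1: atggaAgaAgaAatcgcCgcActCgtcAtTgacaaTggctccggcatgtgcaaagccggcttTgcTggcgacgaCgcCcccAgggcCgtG
Over the whole coding sequence of 1128 bases they differ at 128 positions (88.65% identical). Of the 50-base windows of the main Actg1 transcript, 60.69% also occur in transcripts of other genes, most often the pseudogene model Gm12715, against 14.22% of those of Actb. The read length, and how reads with several possible origins were divided, are not given in the sources used here, so 50 bases is a choice. Values of genes with many shared windows are uncertain to that extent. The RefSeq window of Actg1 is shown because it alone among those of the 9 matched genes held a CArG box, the motif of serum response factor, which drives many actin genes.
Actg1, chr11:120348446-120348745, minus strand: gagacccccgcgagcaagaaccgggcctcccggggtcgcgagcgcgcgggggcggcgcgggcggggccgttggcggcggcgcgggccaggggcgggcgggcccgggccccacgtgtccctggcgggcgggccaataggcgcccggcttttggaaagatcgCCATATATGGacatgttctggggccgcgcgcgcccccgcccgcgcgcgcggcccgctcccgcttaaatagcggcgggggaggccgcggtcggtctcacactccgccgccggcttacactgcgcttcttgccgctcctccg
The capitals mark the CArG box, which begins 90 bases before the annotated start. A CArG box was present in 1.63% of the 32851 windows. Actb had no match in the table.

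The alpha-tubulins were the steadiest of the listed genes. Tuba1a (ENSMUSG00000072235, chromosome 15 from 98949841 to 98953551, minus strand) had 220, 229 and 266 RPM in knock-out replicates 1 to 3, against 252, 227 and 255 in wild-type replicates 1 to 3. Tuba1b (ENSMUSG00000023004, chromosome 15 from 98931425 to 98934565, minus strand), which lies 15275 bases away, had 580, 591 and 723 in knock-out libraries, against 689, 624 and 700 in wild-type libraries. Knock-out replicate 3 held the highest value of each, and the highest library was 1.21 times the lowest for Tuba1a and 1.25 times for Tuba1b, where it was 2.44 times for Krt8. The coefficient of variation over the 6 libraries was 7.60% for Tuba1a and 9.34% for Tuba1b, against 27.2% for Krt8. The spread of Tuba1a on the log2 scale was smaller than that of most genes, with only 15.24% of the 5538 genes varying less. Knock-out minus wild-type was -0.05 for both (SE 0.09 and interval -0.29 to 0.19 for Tuba1a, SE 0.13 and interval -0.40 to 0.29 for Tuba1b), with adjusted p-values of 0.988 and 1.00 by limma.

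Tuba1b gave 2.63, 2.58 and 2.72 reads for each Tuba1a read in knock-out replicates 1 to 3, against 2.74, 2.75 and 2.75 in wild-type replicates 1 to 3. All 3 knock-out ratios lay below the 3 wild-type ones, by 0.06 on the log2 scale. The exact two-sided permutation test gave p = 0.1, the smallest it can give, and 0.4 after adjustment over the 4 ratios. Tuba1a and Tuba1b differ at 23 of 1356 coding bases (98.3% identical), and 72.92% of the 50-base windows of Tuba1a and 73.79% of those of Tuba1b occur in transcripts of other genes, Tuba1c first among them. Reads of the alpha-tubulins are therefore uncertain between the genes, and the part of read assignment in the ratio was not tested. Of the RPKM of the 5 alpha-tubulins listed, Tuba1b took 43.0% ± 2.40 in knock-out and 42.2% ± 0.806 in wild-type libraries, and Tuba1a 16.6% ± 0.872 in knock-out and 16.3% ± 0.368 in wild-type libraries (SD, n = 3 each). Tuba1c and Tuba4a made up nearly all of the rest.

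The beta-tubulin Tubb5 spread less in reads than in RPKM. Tubb5, the beta-tubulin with the largest share of knock-out RPKM (ENSMUSG00000001525, chromosome 17 from 35833921 to 35838306, minus strand), had 748, 1002 and 1033 RPM in knock-out replicates 1 to 3, against 1004, 869 and 1039 in wild-type replicates 1 to 3. Tubb2a (ENSMUSG00000058672, chromosome 13 from 34074301 to 34078008, minus strand), which shares 45.61% of its 50-base windows with Tubb2b, had 166, 152 and 158 in knock-out libraries, against 121, 187 and 162 in wild-type libraries. For Tubb5 knock-out replicate 1 was the lowest library, and for Tubb2a wild-type replicate 1 was. In RPKM Tubb5 ran further apart, at 394, 724 and 942 in knock-out libraries, against 644, 616 and 880 in wild-type libraries. The highest was 2.39 times the lowest in RPKM and 1.39 times in RPM. The read-weighted length of the transcripts to which its reads were assigned was 2649, 1933 and 1444 bases in knock-out libraries, against 2104, 2005 and 1618 in wild-type libraries, so RPKM was highest where that length was shortest. Knock-out minus wild-type was -0.13 for Tubb5 (SE 0.37, interval -1.08 to 0.83) and 0.03 for Tubb2a (SE 0.20, interval -0.49 to 0.55). Per length, Tubb5 took 45.0% ± 10.2 of the RPKM of the 8 beta-tubulins listed in knock-out libraries and 40.5% ± 1.33 in wild-type libraries, and Tubb4b 35.6% ± 5.93 in knock-out and 40.6% ± 6.21 in wild-type libraries (SD, n = 3 each). Tubb3, the neuronal isotype, was listed at 0 throughout, at a locus with 278 transcripts, so this 0 can be a failed estimate.

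Vim and Tmsb10 are the listed genes that cells other than hepatocytes are best known for. Vim, encoding vimentin (ENSMUSG00000026728, chromosome 2 from 13573927 to 13582826, plus strand), had 288, 479 and 260 RPM in knock-out replicates 1 to 3, against 329, 284 and 262 in wild-type replicates 1 to 3. Knock-out replicate 2 was the highest and the other 5 libraries lay between 260 and 329. The summed RPKM of the biliary markers, there mostly Spp1, was also highest in knock-out replicate 2, as given above. The 1 biliary marker above 0 in all libraries was lowest there, at 1.492 in log2(RPKM + 1), against 1.496 to 2.047 elsewhere. Krt7, Krt19, Cftr, Cldn7 and Tspan8 were at 0 in all, which for Krt7 and Krt19 at least can be failed estimates. The part of biliary cells in the Vim reads of knock-out replicate 2 was not tested. In RPKM the values were 232, 376 and 370 in knock-out libraries, against 249, 347 and 388 in wild-type libraries, and so in a different order. All of the reads were assigned to a 926-base transcript in knock-out replicate 3 and wild-type replicate 3, the lowest libraries in RPM. They all went to a 1777-base one in knock-out replicate 2 and wild-type replicate 1, the highest libraries in RPM. Whether the Vim reads depend on the transcript they were assigned to was not tested. The library high in macrophage markers, wild-type replicate 1, was second in Vim reads. Knock-out minus wild-type was -0.02 by RPKM (SE 0.28, interval -0.73 to 0.69), and 0.18 by RPM. Tmsb10 (ENSMUSG00000079523, chromosome 6 from 72957347 to 72958748, minus strand) had 89.4, 87.3 and 78.0 RPM in knock-out libraries, against 73.9, 98.5 and 74.6 in wild-type libraries. Wild-type replicates held both its lowest and its highest value, and knock-out minus wild-type was 0.03 (SE 0.23, interval -0.55 to 0.61). The adjusted p by limma was 1.00 each for Tubb5, Tubb2a, Vim and Tmsb10. Of the 50-base windows of Tmsb10, 63.53% occur in other genes' transcripts, most of them in the model Gm9844.

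**Figure D3:**
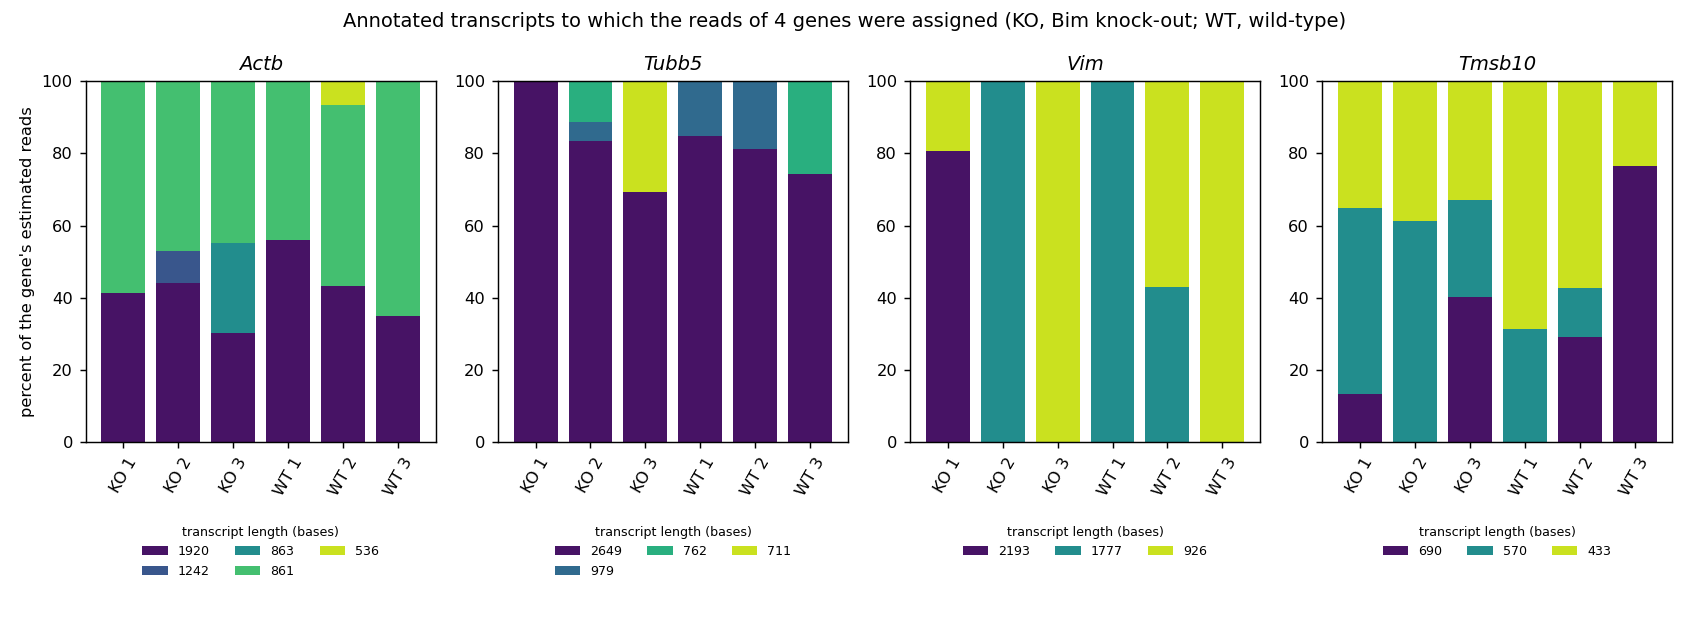
Percent of the estimated reads of 4 genes assigned to each annotated transcript, by length, in the 3 Bim knock-out (KO) libraries left and the 3 wild-type (WT) libraries right. The division of Vim reads changes from library to library within both genotypes, between a 926-base, a 1777-base and, in knock-out replicate 1 alone, a 2193-base transcript that holds 80.6%.

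The other genes of the cytoskeleton were taken from 11 lists, of keratins, other intermediate filaments and linkers, actins, tubulins, tubulin folding, actin turnover, actin nucleation, crosslinking and contraction, microtubule binding, serum response factor regulators and septins. Of their 187 other genes in the files 140 were tested, and none passed the adjusted p of 0.05 by limma, beside 87 (0.789%) of all tested genes. Of the 83 above 0 in all 6 libraries, 47 were higher in knock-out libraries, with a median difference of 0.04, where 2780 of the 5538 genes were higher and the median was 0.00. In the list named for serum response factor regulators, not all of whose genes are regulators, 14 genes were tested. The 5 above 0 in all 6 libraries were all higher in knock-out libraries, with a median difference of 0.34. Their mean log2(RPKM + 1) was lowest in wild-type replicate 1, at 5.09, against 5.48 to 5.87 elsewhere. Of these 5 genes Ccn1, a target of YAP in other cells, had 252, 204 and 196 RPKM in knock-out replicates 1 to 3, against 122, 242 and 166 RPKM in wild-type replicates 1 to 3. Ankrd1, likewise a YAP target in other cells, had 7.56, 10.3 and 6.36 RPKM in the knock-out libraries, against 3.95, 8.02 and 4.91 RPKM in the wild-type ones. For both genes the groups overlapped, and wild-type replicate 1, the library high in macrophage markers, was the lowest.

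In the limma fit over the 5538 genes alone, 6 of the 83 had an unadjusted p below 0.05 by RPKM, beside 130 (2.35%) of the 5538: Actn4, Arpc5l, Ccdc88a, Map4, Sept11 and Tpm1. In the fit over all tested genes Arpc5l did not reach it. By RPM 0 of the 83 had one, beside 70 of the 5538. Sept11, a septin that associates with actin filaments, came nearest the threshold, at 54.8 ± 8.59 RPKM in knock-out and 129 ± 6.90 RPKM in wild-type libraries (difference -1.23, SE 0.15, adjusted p = 0.0579 by limma). Among the 5538 genes alone its adjusted p was 0.662. In RPM Sept11 had 191 ± 24.9 in knock-out and 209 ± 10.2 in wild-type libraries, a difference of -0.14. The read-weighted length of its transcripts was 5028, 4949 and 4388 bases in knock-out libraries, against 1965, 2536 and 2264 in wild-type libraries. Map4, a microtubule stabiliser, had 170 ± 18.2 RPKM in knock-out and 618 ± 234 RPKM in wild-type libraries (difference -1.78, adjusted p = 0.311 by limma). In RPM it averaged 362 ± 15.1 in knock-out and 342 ± 12.05 in wild-type libraries, a difference of 0.08, while its lengths were 2541, 3176 and 3083 bases in knock-out libraries, against 532, 752 and 1295 in wild-type libraries. For both genes the RPKM separated the genotypes along with the assigned lengths and the reads of the gene did not. Actn4, an actin crosslinker, likewise stood at 206 ± 18.2 RPKM in knock-out and 283 ± 35.3 RPKM in wild-type libraries, and at 579 ± 62.9 RPM in knock-out and 559 ± 84.8 RPM in wild-type libraries. Tpm1, tropomyosin, had the higher knock-out mean on both scales, at 973 ± 8.18 RPKM in knock-out and 678 ± 88.2 RPKM in wild-type libraries (difference 0.53, adjusted p = 0.715 by limma) and 753 ± 9.60 RPM in knock-out and 635 ± 98.7 RPM in wild-type libraries.

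**Figure D4:**
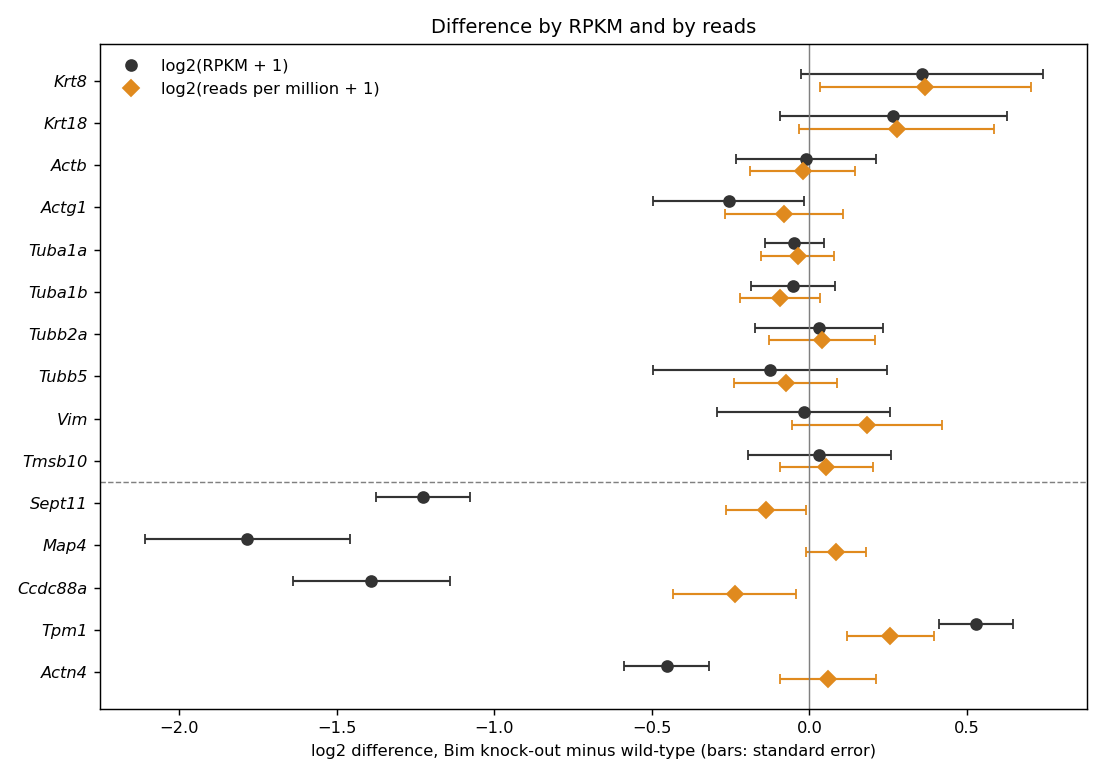
Log2 difference, Bim knock-out minus wild-type, of the 10 listed genes and of other named cytoskeleton genes, by RPKM and by RPM, with standard errors as bars. Sept11 and Map4 lie at -1.23 and -1.78 by RPKM and at -0.14 and 0.08 by RPM.

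Among 2974 genes averaging 10 RPKM or more, Ptpn11, Scamp5, Sall1 and Map3k6 were among the 5 whose profile over the 6 libraries lay nearest the mean profile of the 10 genes. Their mean absolute difference from it was 0.0525 to 0.0590 on the log2(RPKM + 1) scale. Ptpn11, which encodes the tyrosine phosphatase SHP2, had 106, 102 and 110 RPKM in knock-out replicates 1 to 3, against 93.6, 110 and 110 in wild-type replicates 1 to 3. It was lowest in wild-type replicate 1, as the mean profile was. Because Ptpn11 was chosen for nearness to that profile, this is no separate result.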

How the data were processed

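Libraries of hepatocytes, 3 from Bim knock-out and 3 from wild-type mice, were grouped and numbered by their titles. Per the submitters' processing notes, the aligner was TopHat2 (version 2) and the build GRCm38 (mm10), and the tool that divided reads among transcripts, its use of strand and the read length are not given in the sources used here. The deposited annotation files give, per the file headers and contents, an estimated read count and an RPKM for each of 118492 transcripts, written as text attributes. RPKM in the files rests on library totals of 19245556 to 21899881. Exact zeros are frequent where a locus has several transcripts: 31.9% of tested genes with several transcripts and 99.7% of those with 1 were above 0 in all 6 libraries.

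Reads and RPKM were summed per gene. Symbols came from a table that matched 47993 of 48353 genes. Genes averaging 1 RPKM or more were tested on log2(RPKM + 1), where a difference understates the change of low genes, with limma (version 3.58.1, R 4.3.3, mean-variance trend, two-sided, no covariate) and Benjamini-Hochberg adjustment at 0.05. The fit was tested on simulated data for the 5538 genes above 0 in all libraries. It called 49 of 100 genes given a log2 change of 1 and 85 of 100 given a change of 2, with 4 false calls. Single values were compared with exact permutation tests (scipy 1.17.1). Alternatives changed the pseudocount, filter, scaling, transcript choice, zeros, trend, threshold, replicate block and libraries. The listed genes and the gene lists were chosen with earlier results of these data known. Other genes were named by rule: in each list the 2 genes above 0 in all libraries with the smallest p, and the 5 nearest the mean profile, of which 1 is not reported here. Of those, only genes that the text turns on are described, and Ptprc, Plec and Dst were named for their values in wild-type replicate 1. Sequences came from RefSeq promoter windows of GRCm38.p6, which 9 of the 10 genes matched, and from annotated transcripts of GRCm38.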

Additional observations from a re-analysis of the deposited data

How the results depend on the processing

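The count of genes called over all genes, 87, was 0 with the replicate block and 0 with zeros at loci of several transcripts taken as missing, and 171 to 198 when a library was left out. The other 8 alternatives gave 80 to 99. Among the genes above 0 in all libraries used, 5538 in the main fit and other numbers in some alternatives, it was 0 in all 17 alternatives. Of the 10 genes, 0 were called in any of 16. The smallest adjusted p of the 10 genes over all alternatives was 0.800 by limma, among the 5681 genes above 0 in all libraries used when wild-type replicate 2 was left out. Of 170 alternative differences 148 kept their sign and 22 turned. The changes of filter, replicate block, zeros, trend and threshold leave the estimates of these genes as they are. Their signs could not turn there, so the 148 overstate how stable the signs are. Beside left-out libraries, the sign turned for Actb (0.028) and Tuba1a (0.0046) by quantile scaling, Vim by RPM (0.18) and by voom (0.18), and Actg1 (0.13) and Tmsb10 (-0.30) by the highest transcript alone. Leaving out each library gave -0.046 to 0.57 for Krt8, -0.12 to 0.49 for Krt18, -0.19 to 0.18 for Actb, -0.44 to -0.10 for Actg1, -0.10 to -0.01 for Tuba1a, -0.18 to 0.018 for Tuba1b, -0.16 to 0.19 for Tubb2a, -0.40 to 0.23 for Tubb5, -0.20 to 0.21 for Vim and -0.14 to 0.21 for Tmsb10. Log2 ratios ran from 0.05 to 0.16 for Krt8 over Krt18, -0.16 to 0.23 for Actb over Actg1, -0.08 to -0.04 for Tuba1b over Tuba1a and -0.33 to 0.084 for Tubb5 over Tubb2a. The cause of these changes was not tested. Same-numbered libraries did not deviate together (correlations -0.158, -0.049 and -0.005). Correlations of differently numbered libraries ran from -0.271 to 0.312. With so few samples, these values cannot settle whether the numbers pair the samples.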
